A study of Homo sapiens with 6 samples.

Results

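The transcripts described here are those encoded by mitochondrial DNA, the small circular genome that every mitochondrion carries. They were chosen as the genes whose symbol begins with MT-, and 37 of the 56305 genes counted met this rule. These 37 members are 13 mRNAs, 2 rRNAs and 22 tRNAs. They were measured in MOLM13, an acute myeloid leukemia cell line that carries an internal tandem duplication in FLT3 and the t(9;11)(p22;q23) translocation. The cells were treated for 24 h with the vehicle DMSO (3 libraries) or with 1 μM ZW27941 (3 libraries), a degrader that joins the m6A methyltransferase METTL3 to the VHL ubiquitin ligase so that the METTL3 protein is destroyed. Per the labels both groups are the same cell line and differ in the treatment alone. The labels do not say whether the replicates came from separate cultures, so p-values measure only the spread between these libraries.

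Mitochondrial DNA is copied into RNA from both of its strands, as long precursors that cover most of the circle. In these precursors tRNAs sit between most of the other genes, and their excision releases the mRNAs and rRNAs. All the mRNAs encode subunits of the respiratory chain or of ATP synthase, which also contain many subunits made from nuclear genes, and the rRNAs form the ribosome that translates these mRNAs. Most members are transcribed with the heavy strand as template. MT-ND6 is the only mRNA transcribed from the light strand. METTL3 works on nuclear transcripts, and mitochondrial RNA has its own modifying enzymes.

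Of the 37 members, 28 were read from the heavy strand and 9 from the light strand, which were MT-ND6 and 8 tRNAs. The genes are packed closely, and neighbouring mRNAs overlap where one reading frame starts inside another. The stretches below show where reads can match both genes of a pair, which for the small MT-ATP8 is a larger part of its length than for MT-ATP6. They are reference sequence of build hg38 on the plus strand, from GENCODE transcripts, and not sequence of the cells. Capitals mark the bases that both genes share. The shared run is 46 bases (chrM:8527-8572) of the 207 bases of MT-ATP8, and 7 bases (chrM:10760-10766) for MT-ND4L and MT-ND4.
MT-ATP8 into MT-ATP6 (chrM:8507-8592): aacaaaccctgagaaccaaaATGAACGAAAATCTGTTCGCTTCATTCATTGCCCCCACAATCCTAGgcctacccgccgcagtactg
MT-ND4L into MT-ND4 (chrM:10727-10786): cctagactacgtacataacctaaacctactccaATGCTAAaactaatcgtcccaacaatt

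The tRNA genes are short, and their counts in these libraries ranged from 0 to 1168, so 4 of them are shown as examples, each on the strand of its own tRNA. MT-TP and MT-TQ (light strand) and MT-TT (heavy strand) had the most counts among the tRNAs. MT-TK lies between MT-CO2 and MT-ATP8 on the heavy strand and had no count in any library.
MT-TP (chrM:15956-16023, minus strand): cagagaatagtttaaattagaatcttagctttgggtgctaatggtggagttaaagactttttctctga
MT-TQ (chrM:4329-4400, minus strand): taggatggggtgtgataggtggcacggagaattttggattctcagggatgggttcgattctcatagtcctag
MT-TT (chrM:15888-15953, plus strand): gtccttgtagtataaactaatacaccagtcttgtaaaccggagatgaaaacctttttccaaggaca
MT-TK (chrM:8295-8364, plus strand): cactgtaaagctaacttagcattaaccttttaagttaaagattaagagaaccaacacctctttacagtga

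The libraries held 143454176 to 178744976 counts on genes, and with unassigned reads the files tally 229503413 to 287628269 reads per library. The labels state 50000000 raw reads per sample, and the reason for the gap was not given in the sources used here, so how far a count stands for an independent molecule is not known. Values are given as CPM, each gene's counts scaled to a common library total with edgeR's TMM factors. All 7 myeloid markers listed (CD33, FLT3, SPI1, LYZ, MPO, HOXA9 and MEIS1) were counted in every library, while 5 markers of other cell types summed to at most 1.75 CPM, with HBB at 0. METTL3 itself stood at 121 ± 1.17 CPM in DMSO and 123 ± 4.96 CPM on ZW27941 (SD, n = 3). Since the compound removes protein, this transcript does not check the labels. ZW27941 replicate 3 stood apart from the other libraries. Its counts differed from those of ZW27941 replicates 1 and 2 by a chi-square per degree of freedom of 11.5 and 7.79, against 4.34 to 5.13 for all other pairs within a group.

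In DMSO, the 37 members took 2.65 ± 0.068% of the counts on genes (SD, n = 3), and on ZW27941 they took 2.95 ± 0.044% (SD, n = 3). Most of these counts were on mRNAs. The summed level of the 13 mRNAs was 22004, 20922 and 21110 CPM in the DMSO libraries and 24033, 24654 and 23874 CPM in the ZW27941 libraries. Every ZW27941 library was above every DMSO library, and the mean rose from 21345 ± 579 to 24187 ± 412 CPM (SD, n = 3), which is 13.3% or 0.18 on the log2 scale. The exact two-sided permutation test over the libraries gave p = 0.1, which is the smallest that 3 against 3 can give. The rRNAs summed to 5190 ± 141 CPM in DMSO and 5162 ± 64.7 CPM on ZW27941 (SD, n = 3, exact permutation p = 0.9), a log2 ratio of −0.0077. That ratio changed sign, to 0.010, without DMSO replicate 3. The tRNAs summed to 14.04 ± 0.695 CPM and 14.8 ± 1.55 CPM (SD, n = 3, exact permutation p = 0.5). Of these, the heavy-strand tRNAs summed to 2.41, 2.41 and 2.29 CPM in DMSO and 2.66, 2.76 and 2.58 CPM on ZW27941. They did not overlap between groups and were 12.6% higher (exact permutation p = 0.1). MT-TT made up most of this sum, with means of 1.97 of 2.37 CPM in DMSO and 2.24 of 2.67 CPM on ZW27941. The other heavy-strand tRNAs tested, MT-TF and MT-TW, overlapped between groups, with fitted log2 fold changes of −0.12 and 0.20. All levels here are shares of bulk RNA, in which more mitochondrial RNA per cell and less of other RNA cannot be told apart.

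The difference between classes was tested as such. The log2 ratio of summed mRNA to summed rRNA was 2.08, 2.05 and 1.99 in DMSO and 2.23, 2.26 and 2.19 on ZW27941. The groups did not overlap, and the ratio was higher on ZW27941 by 0.19 (exact permutation p = 0.1, adjusted p = 0.25 over 5 such ratios). With any single library left out, this difference stayed between 0.16 and 0.21. MT-RNR2 made up most of the summed rRNA, with a mean of 4764 of 5190 CPM in DMSO. The log2 ratio of mRNA to tRNA was 10.6 ± 0.104 in DMSO and 10.7 ± 0.146 on ZW27941 (SD, n = 3), and its groups overlapped (exact permutation p = 0.5).

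In edgeR's quasi-likelihood test, 24 members passed the filter on low counts and were tested: 13 mRNAs, 2 rRNAs and 9 tRNAs. The other 13 were tRNAs. An adjusted p under 0.05 was reached by 13 of the 24, and all of these were higher on ZW27941. Over all 20399 genes tested, 30.1% were called, with 16.3% higher and 13.8% lower. By class, 12 of the 13 mRNAs, none of the 2 rRNAs and 1 of the 9 tRNAs tested were called. No member of any class was called lower, and none had an unadjusted p under 0.05 in that direction. DESeq2 called the same number of mRNAs higher, 12, with 0 lower. The fitted log2 fold changes of the mRNAs ran from 0.098 to 0.34 with a median of 0.18, and the median over all genes tested was −0.0019.

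**Figure D1:**
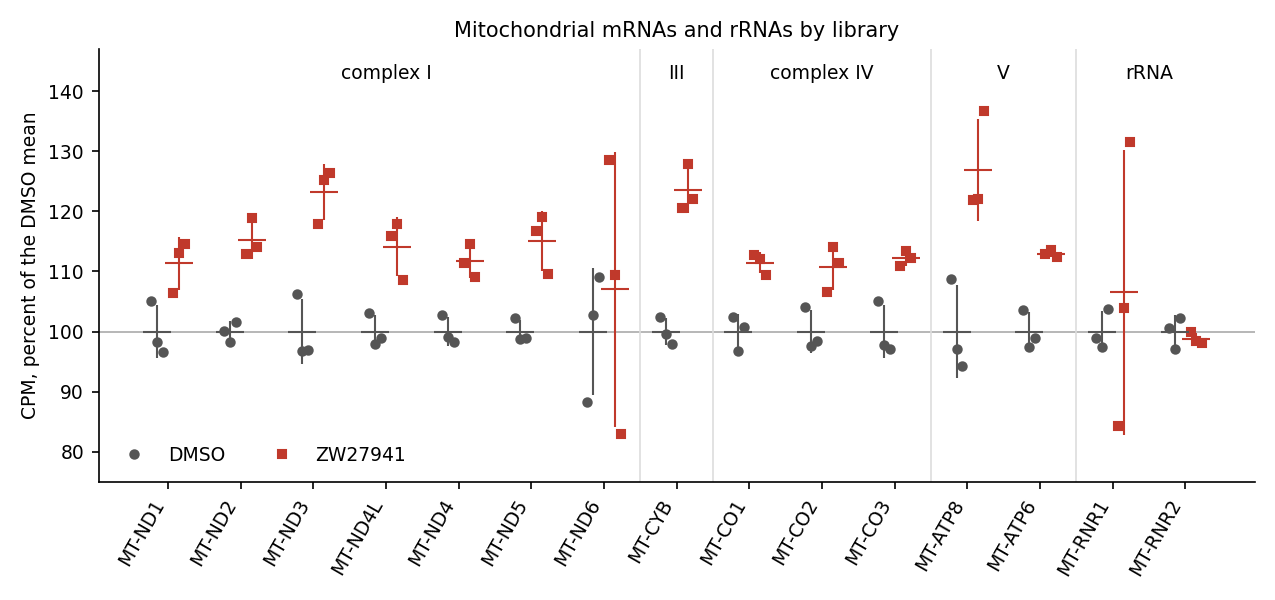
Level of each mitochondrial mRNA and rRNA in each library, as CPM in percent of the mean of the DMSO libraries (y axis), by gene and respiratory complex (x axis). Points are libraries, horizontal marks are means and vertical lines are 1 SD (n = 3 per group). The ZW27941 libraries lie above all DMSO libraries for 12 mRNAs, and the groups overlap for MT-ND6, MT-RNR1 and MT-RNR2.

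MT-CYB (chrM:14747-15887), which encodes cytochrome b, the one mitochondrially made subunit of complex III, had the lowest p of all members. Its level was 1798, 1750 and 1721 CPM in the DMSO libraries and 2119, 2247 and 2145 CPM in the ZW27941 libraries. The groups lay far apart compared with the spread within them. The log2 fold change was 0.31 (standard error 0.028, edgeR adjusted p = 4.98e-08), a rise of 23.6%.

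Complex I, the NADH dehydrogenase, takes 7 of its core subunits from mitochondrial DNA, and 6 of these mRNAs rose. MT-ND3, a small membrane subunit, had the largest change among them. It stood at 391, 356 and 357 CPM in DMSO and at 434, 461 and 465 CPM on ZW27941, and edgeR fitted a log2 fold change of 0.30 (standard error 0.033, edgeR adjusted p = 5.59e-07). MT-ND2, a proton-pumping subunit, had 837, 821 and 850 CPM in DMSO and 944, 994 and 954 CPM on ZW27941. The fitted change was 0.21 on the log2 scale (standard error 0.026, edgeR adjusted p = 4.18e-06). MT-ND5, another of the pumping subunits, had 2027, 1956 and 1962 CPM in DMSO and 2312, 2359 and 2170 CPM on ZW27941. The fitted change was 0.20 on the log2 scale (standard error 0.030, edgeR adjusted p = 2.19e-05). In all of these genes the ZW27941 libraries were above the DMSO libraries without overlap.

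The remaining heavy-strand mRNAs of complex I rose by less. MT-ND4 had 3548, 3421 and 3391 CPM in DMSO and 3846, 3955 and 3768 CPM on ZW27941, and its log2 fold change was 0.16 (standard error 0.028, edgeR adjusted p = 0.000145). MT-ND4L, which shares an mRNA with MT-ND4, had 279.6, 265 and 268 CPM in DMSO and 314, 319.6 and 294 CPM on ZW27941, with a log2 fold change of 0.19 (standard error 0.030, edgeR adjusted p = 3.97e-05). The fold changes of the pair differed by little beside their errors. MT-ND1 (chrM:3307-4262), the first mRNA after the rRNAs, had 1679, 1571 and 1545 CPM in DMSO and 1699.6, 1808 and 1832 CPM on ZW27941. Its groups were the closest, since DMSO replicate 1 and ZW27941 replicate 1 differed by little, and its log2 fold change was 0.16 (standard error 0.032, edgeR adjusted p = 0.000826).

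All 3 mRNAs of complex IV, the cytochrome c oxidase, rose by similar amounts. MT-CO1 (chrM:5904-7445), the catalytic subunit and the most highly counted member, had 5689, 5379 and 5594 CPM in DMSO and 6263, 6229 and 6077 CPM on ZW27941. The fitted change was 0.16 on the log2 scale (standard error 0.028, edgeR adjusted p = 0.000192). MT-CO2, which takes electrons from cytochrome c, had 1880, 1762 and 1777 CPM in DMSO and 1927, 2061 and 2014 CPM on ZW27941, and edgeR fitted a log2 fold change of 0.15 (standard error 0.030, edgeR adjusted p = 0.000702). This was the smallest change among the mRNAs called. MT-CO3, the remaining core subunit, had 2556, 2380 and 2362 CPM in DMSO and 2699, 2759 and 2731 CPM on ZW27941, and edgeR fitted a log2 fold change of 0.17 (standard error 0.029, edgeR adjusted p = 0.00017).

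Complex V, the ATP synthase, takes its subunit a (MT-ATP6) and the small subunit A6L (MT-ATP8) from a shared mRNA. MT-ATP6 had 1182, 1109.7 and 1128 CPM in DMSO and 1288, 1294 and 1281 CPM on ZW27941, and its log2 fold change was 0.18 (standard error 0.027, edgeR adjusted p = 3.09e-05). MT-ATP8 had 39.9, 35.6 and 34.6 CPM in DMSO and 44.7, 44.8 and 50.2 CPM on ZW27941. The fitted change was 0.34 on the log2 scale (standard error 0.045, edgeR adjusted p = 5.58e-06), with the largest rise and the largest error of the 12 mRNAs called. There were 31.2 ± 1.52 counts of MT-ATP6 per count of MT-ATP8 in DMSO and 27.7 ± 1.92 on ZW27941 (SD, n = 3). The groups did not overlap (exact permutation p = 0.1). Reads in the capitals printed above belong to both genes, and how they were assigned was not given in the sources used here.

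Unequal change among the mRNAs was examined without any scaling between libraries, as each mRNA's share of the summed 13. MT-CYB took 8.17%, 8.37% and 8.15% in DMSO and 8.82%, 9.11% and 8.99% on ZW27941. The shares of MT-ND3 (1.72 ± 0.047% in DMSO and 1.87 ± 0.072% on ZW27941) and MT-ATP8 (0.172 ± 0.0089% and 0.193 ± 0.015%; SD, n = 3) were also higher in every ZW27941 library. The share of MT-ND4 was lower in every ZW27941 library, at 16.2 ± 0.154% in DMSO and 15.9 ± 0.140% on ZW27941 (SD, n = 3). For these 4 the exact permutation test gave p = 0.1, the smallest possible, and an adjusted p of 0.325 over the 13 shares. The other 9 shares overlapped between groups, but without ZW27941 replicate 3 the number that did not overlap was 7 in place of 4.

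The same question was put to edgeR with the summed 13 mRNAs as the library size, in a fit chosen after the values had been seen. Relative to the sum, MT-ATP8 was higher by 0.17 (standard error 0.044, edgeR adjusted p = 0.00116). MT-CYB was higher by 0.12 (standard error 0.044, edgeR adjusted p = 0.0135), as was MT-ND3 (0.12, standard error 0.041, edgeR adjusted p = 0.0102). No mRNA was lower in this fit, by adjusted or unadjusted p. Calls were lost in 4 of the 6 fits that left out a library. Without DMSO replicate 3, MT-ATP8 alone stayed past the threshold, and without ZW27941 replicate 3, MT-CYB alone did. MT-ND3 was lost without DMSO replicate 2 (edgeR adjusted p = 0.0541) and MT-CYB without ZW27941 replicate 2 (edgeR adjusted p = 0.0760). Without ZW27941 replicate 1, MT-ND6 was lower relative to the sum. MT-RNR2 was lower relative to the summed mRNAs by −0.20 (standard error 0.047, edgeR adjusted p = 0.000263) and stayed past the threshold with any 1 library left out. MT-RNR1 was not called (−0.089, standard error 0.062, edgeR adjusted p = 0.234). It was 0.052 without ZW27941 replicate 1, and −0.28 and called lower without ZW27941 replicate 3 (edgeR adjusted p = 4.69e-09). Among the tRNAs, MT-TP alone was called, at −0.23 (standard error 0.082, edgeR adjusted p = 0.0137). That call was lost without ZW27941 replicate 3 (edgeR adjusted p = 0.204).

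Levels were compared between genes per kilobase of gene length. In DMSO, MT-CO1 was highest at 3602 ± 103 CPM per kb, followed by MT-CO3 at 3103 ± 137, MT-RNR2 at 3056 ± 82.3, MT-CO2 at 2641 ± 94.4 and MT-ND4 at 2506 ± 60.4 CPM per kb (SD, n = 3). MT-ATP6 (1674 ± 54.7), MT-ND1 (1672 ± 74.2) and MT-CYB (1539.6 ± 34.3 CPM per kb) came next, ahead of MT-ND5 (1094 ± 21.7), MT-ND3 (1064 ± 57.7), MT-ND4L (912 ± 25.3) and MT-ND2 (803 ± 14.01 CPM per kb). MT-RNR1 (446 ± 14.9), MT-ND6 (212 ± 22.6) and MT-ATP8 (177 ± 13.7 CPM per kb) were lowest. Since the RNA selection for the libraries was not given in the sources used here, the places of the rRNAs among the mRNAs are not secure. Neighbours whose libraries overlapped were MT-CO3 with MT-RNR2, MT-ATP6 with MT-ND1, MT-ND5 with MT-ND3, and MT-ND6 with MT-ATP8. MT-ATP8 and MT-ND4L share mRNAs with MT-ATP6 and MT-ND4, so differences within these pairs are not differences between mRNAs. How reads on their shared bases were assigned was not given in the sources used here. On ZW27941 the level of MT-CYB rose to 1902 ± 59.0 CPM per kb, beside 1891 ± 9.96 for MT-ATP6 and 1862 ± 73.9 for MT-ND1. Counts on MTATP6P1, a near copy of MT-ATP6 in the nuclear genome, are not part of these levels. They were 16.9% of those of MT-ATP6 in DMSO and 17.2% on ZW27941. How reads that match both were assigned was not tested, so the rank of MT-ATP6 beside MT-ND1 and MT-CYB is not secure. Across the 13 mRNAs, which share libraries and are not independent, Spearman's rho of the log2 fold change was 0.176 with the start on the genome, −0.154 with gene length and −0.462 with the level per kb in DMSO.

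MT-ND6 (chrM:14149-14673, minus strand), the complex I subunit read from the light strand, was the mRNA that did not pass the test. It had 98.3, 114 and 121 CPM in DMSO and 143, 122 and 92.4 CPM on ZW27941. The lowest library and the highest library were both ZW27941 libraries. The log2 fold change was 0.098 (standard error 0.091, edgeR adjusted p = 0.456). The value depended on single libraries, as it was 0.25 without ZW27941 replicate 3 (edgeR adjusted p = 0.000235) and −0.057 without ZW27941 replicate 1 (edgeR adjusted p = 0.612). The log2 ratio of the summed 12 heavy-strand mRNAs to MT-ND6 was 7.58 ± 0.194 in DMSO and 7.68 ± 0.313 on ZW27941 (SD, n = 3, exact permutation p = 0.7), so a difference between the strands was not shown.

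Some other light-strand members were also spread out among the ZW27941 libraries. MT-TP, the proline tRNA, had 5.47, 5.84 and 5.65 CPM in DMSO and 6.48, 5.40 and 4.46 CPM on ZW27941. MT-TE, the glutamate tRNA beside MT-ND6, had 1.40, 1.42 and 1.39 CPM in DMSO and 1.82, 1.57 and 1.34 CPM on ZW27941. For both, as for MT-ND6, the DMSO libraries lay within the range of the ZW27941 libraries. MT-TA also had a larger SD on ZW27941, at 0.041 against 0.0075 CPM in DMSO. The SD was smaller on ZW27941 than in DMSO for MT-TS1 (0.101 against 0.278 CPM), MT-TQ (0.170 against 0.264) and MT-TY (0.0606 against 0.118). Of the 7 light-strand members tested, 5 were highest in replicate 1 and lowest in replicate 3 among the ZW27941 libraries. Of the 12 heavy-strand mRNAs, 1 had this order. Other heavy-strand members had it too. These were MT-TF (0.111, 0.0901 and 0.0876 CPM), MT-TW (0.405, 0.312 and 0.263 CPM) and MT-RNR2 (4761, 4688 and 4677 CPM). MT-TT and MT-RNR1 did not have it. The order was noticed after the values were seen and was not tested. Summed over the 9 light-strand members, the level was 109, 126 and 134 CPM in DMSO and 157, 134 and 103 CPM on ZW27941 (exact permutation p = 0.7). MT-ND6 made up most of this sum, with means of 111 of 123 CPM in DMSO and 119 of 131 CPM on ZW27941.

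**Figure D2:**
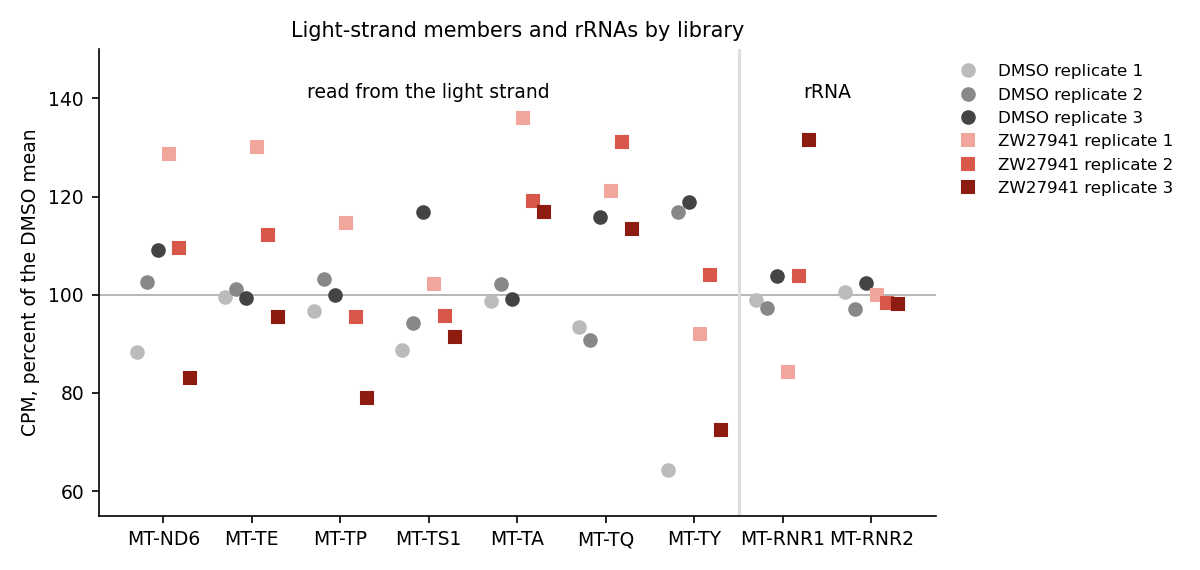
Level of the 7 tested light-strand members and both rRNAs in each library, as CPM in percent of the DMSO mean (y axis), by gene (x axis), with 1 point per library. Among the ZW27941 libraries, replicate 1 is highest and replicate 3 lowest for 5 of the 7 light-strand members. MT-RNR2 has the same order, with small differences, and MT-RNR1 has the opposite order.

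Neither rRNA passed the test. Both are read from the same strand as the 12 mRNAs that rose. MT-RNR2 (chrM:1671-3229), the large-subunit 16S rRNA, had 4795, 4623 and 4874 CPM in DMSO and 4761, 4688 and 4677 CPM on ZW27941. All ZW27941 libraries lay within the range of the DMSO libraries, and the log2 fold change was −0.017 (standard error 0.027, edgeR adjusted p = 0.692). The log2 ratio of the 12 heavy-strand mRNAs to MT-RNR2 was 2.16 ± 0.044 in DMSO and 2.35 ± 0.031 on ZW27941 (SD, n = 3), with no overlap (exact permutation p = 0.1, adjusted p = 0.25 over the 5 ratios).

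MT-RNR1 (chrM:648-1601), the small-subunit 12S rRNA, had 421, 415 and 442 CPM in DMSO and 359, 442 and 560 CPM on ZW27941. Its ZW27941 libraries lay on both sides of the DMSO libraries, and the log2 fold change was 0.091 (standard error 0.084, edgeR adjusted p = 0.458). It was 0.24 without ZW27941 replicate 1 (edgeR adjusted p = 0.00143) and −0.092 without ZW27941 replicate 3 (edgeR adjusted p = 0.112). Per count of MT-RNR1 there were 11.4, 11.2 and 11.0 counts of MT-RNR2 in DMSO, and 13.3, 10.6 and 8.35 on ZW27941. Neither rRNA had an unadjusted p under 0.05, and DESeq2 called 0 of them, by adjusted or unadjusted p.

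RNAs that carry no poly(A) tail varied among the libraries of both groups. Of the 5 such RNAs listed, RN7SK was at 0 in every library, RPPH1 (the RNA of RNase P) and RMRP were called higher in edgeR, and RN7SL1 and RN7SL2 (RNAs of the signal recognition particle) were called lower. The groups overlapped for all of these but RN7SL2. Their summed level ran from 108 to 158 CPM in DMSO and from 55.3 to 138 CPM on ZW27941. In DMSO replicates 1, 2 and 3, RPPH1 had 3.04, 1.17 and 4.62 CPM and RMRP had 1.47, 0.345 and 2.32 CPM. The SD of RN7SL1 was 11.4 CPM in DMSO and 22.9 on ZW27941, and that of RN7SL2 was 15.9 and 11.0. In ZW27941 replicates 1, 2 and 3, RPPH1 had 1.75, 6.02 and 21.2 CPM and RMRP had 0.749, 3.06 and 11.8 CPM, the order that MT-RNR1 had. RN7SL1, at 33.7, 24.3 and 67.9 CPM, and RN7SL2, at 43.3, 21.96 and 37.3 CPM, did not have that order. The part of RNA selection in the values of MT-RNR1 and of the light-strand members was not tested, and how RNA was selected for the libraries was not given in the sources used here.

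Of the 22 tRNAs, 9 were counted in every library and tested, 3 had counts in some libraries and 10 had none. The 3 with scattered counts were MT-TC, MT-TN and MT-TD, with at most 28 counts in a library. The 10 without a count were all read from the heavy strand. A count of 0 allows up to 3 counts per library, which is 0.0166 to 0.0209 CPM, for counting error only. MT-TQ, the glutamine tRNA, was the tRNA called. It had 1.79, 1.74 and 2.22 CPM in DMSO and 2.32, 2.51 and 2.17 CPM on ZW27941, so the groups overlapped. Its log2 fold change was 0.28 (standard error 0.10, edgeR adjusted p = 0.0349). This call was lost without DMSO replicate 1 (edgeR adjusted p = 0.133), without DMSO replicate 2 (0.166), without ZW27941 replicate 1 (0.0591) and without ZW27941 replicate 2 (0.147).

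MT-TT, the threonine tRNA next to MT-CYB, had 2.02, 1.92 and 1.98 CPM in DMSO and 2.15, 2.35 and 2.23 CPM on ZW27941. Every ZW27941 library was above the DMSO libraries, but the log2 fold change of 0.18 (standard error 0.086) had an edgeR adjusted p of 0.114. For MT-TP the log2 fold change was −0.051 (standard error 0.091, edgeR adjusted p = 0.721), and it changed sign, to 0.074, without ZW27941 replicate 3. The other 6 tested tRNAs had fitted log2 fold changes from −0.17 to 0.31, with adjusted p above the threshold. At 13 to 343 counts per library, changes of the size seen in the mRNAs were within the error of several of them. For MT-TF, with 13 to 20 counts, the standard error was 0.36. Of the 24 members tested, 14 had ZW27941 libraries all above the DMSO libraries (12 mRNAs, MT-TT and MT-TA) and none had them all below. Over all genes tested, 41.6% did not overlap, 21.7% being above and 19.9% below.

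Which tRNAs had counts went with the annotation around them, in a description made after the counts were seen. For each tRNA, the longest adjacent stretch without another gene on its own strand was measured. It was 324 to 6634 bases for the 9 tRNAs counted in every library, 31 to 72 bases for the 3 with scattered counts, and 0 to 70 bases for the 10 without counts. Measured to the nearest gene on either strand, the ranges overlapped, at 1 to 1122 bases for the 9 and 0 to 25 bases for the 10. MT-TP, which borders the non-coding control region, had the most counts, with 713 to 1168 per library. MT-TK, shown above, has 25 bases on one side and no count. Mature tRNAs and longer RNAs that run through a tRNA gene were not told apart in these counts.

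**Figure D3:**
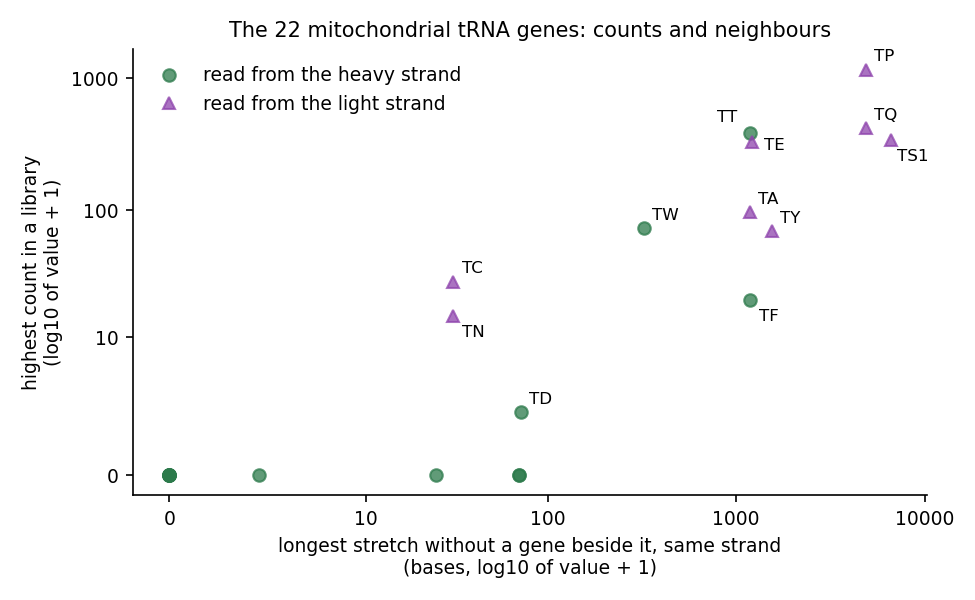
Highest count in any library (y axis, log10 of the count plus 1) against the longest adjacent stretch without a gene on the same strand (x axis, bases, log10 of the value plus 1) for the 22 mitochondrial tRNA genes, by template strand, with MT- left out of the labels. The 9 tRNAs counted in every library have 324 bases or more, and the 10 without counts, some drawn on top of each other, have 70 or fewer.

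The nuclear genome holds near copies of mitochondrial genes, which can take reads from the members. The files list 405 such copies, of which 108 had any count and 14 were tested. In edgeR 4 of the 14 were called higher and none lower (0 with an unadjusted p under 0.05 in that direction). Over all genes tested, 16.3% were called higher and 13.8% lower, or 30.1% in either direction. MTATP6P1 (hg38 chr1:633696-634376, 98.53% identical to MT-ATP6 over 681 bases) had 193 ± 12.7 CPM in DMSO and 222 ± 5.60 CPM on ZW27941 (SD, n = 3). Its log2 fold change was 0.20 (standard error 0.034, edgeR adjusted p = 8.72e-05), and its counts were 16.9 ± 0.551% and 17.2 ± 0.514% of those of MT-ATP6 (SD, n = 3). MTND2P28 (chr1:629640-630683, 98.37% identical to MT-ND2) rose by 0.24 (standard error 0.031, edgeR adjusted p = 4.51e-06). MTCO1P12 (chr1:631074-632616, 98.64% identical to MT-CO1) rose by 0.35 with overlap between the groups (standard error 0.101, edgeR adjusted p = 0.0116). Adding each copy to its parent moved the log2 ratio of MT-ATP6 from 0.176 to 0.180, of MT-ND2 from 0.205 to 0.207 and of MT-CO1 from 0.156 to 0.157. The remaining copy called was MTRNR2L12, 95.14% identical to MT-RNR2, which was itself not called. MTRNR2L12 had 0.241 ± 0.091 CPM in DMSO and 0.403 ± 0.110 CPM on ZW27941 (SD, n = 3), with overlap between the groups. Its log2 fold change was 0.75 (standard error 0.26, edgeR adjusted p = 0.0312). How reads that match both places were assigned was not tested.

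The mitochondrial mRNAs were then set beside the nuclear genes for subunits of the same complexes. Of 75 nuclear subunit genes of complexes I, III, IV and V, 9 were called higher and 43 lower in edgeR, beside 16.3% higher and 13.8% lower over all genes tested. Their median log2 fold change was −0.11. With upper quartile normalization, 5 were higher. Their summed level fell from 8645 ± 34.5 CPM in DMSO to 7940 ± 196 CPM on ZW27941 (SD, n = 3). The log2 ratio of the 13 mitochondrial mRNAs to the 75 nuclear genes was 1.34, 1.28 and 1.29 in DMSO and 1.61, 1.66 and 1.55 on ZW27941. The groups did not overlap, and the ratio was higher on ZW27941 by 0.30 (exact permutation p = 0.1).

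In each complex the ratio moved the same way. For complex III, MT-CYB against 9 nuclear genes, the log2 ratio was 0.28 ± 0.033 in DMSO and 0.71 ± 0.065 on ZW27941 (SD, n = 3), the largest difference at 0.43. Here CYC1, which encodes cytochrome c1, fell by 0.27 on the log2 scale (standard error 0.029, edgeR adjusted p = 4.97e-07), while UQCRFS1, the Rieske iron-sulfur subunit, rose by 0.25 (standard error 0.026, edgeR adjusted p = 3.14e-07). For complex V the difference was 0.34, for complex IV 0.26 and for complex I 0.26. Each had an exact permutation p of 0.1 and an adjusted p of 0.1 over the 4 complexes.

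Complex V had the most uniform nuclear side, since 14 of its 18 nuclear genes were called lower and none higher (0 also by unadjusted p and by DESeq2). ATP5B, the catalytic beta subunit, fell from 1249 ± 3.48 to 1079 ± 21.2 CPM (SD, n = 3), and ATP5C1, the gamma subunit, fell from 145 ± 1.86 to 127 ± 2.19 CPM (SD, n = 3). In complex IV, 8 of 11 were lower and 2 higher, with COX6B1 and COX5A at log2 fold changes of −0.20 and −0.19. In complex I, 15 of 37 were lower and 5 higher, with NDUFS7, a core subunit of the matrix arm, at −0.21. In complex III, 6 of 9 were lower and 2 higher. Over all genes tested, 16.3% were called higher and 13.8% lower, and the share called higher in complex I was near that background. All genes named here passed the threshold in edgeR.

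**Figure D4:**
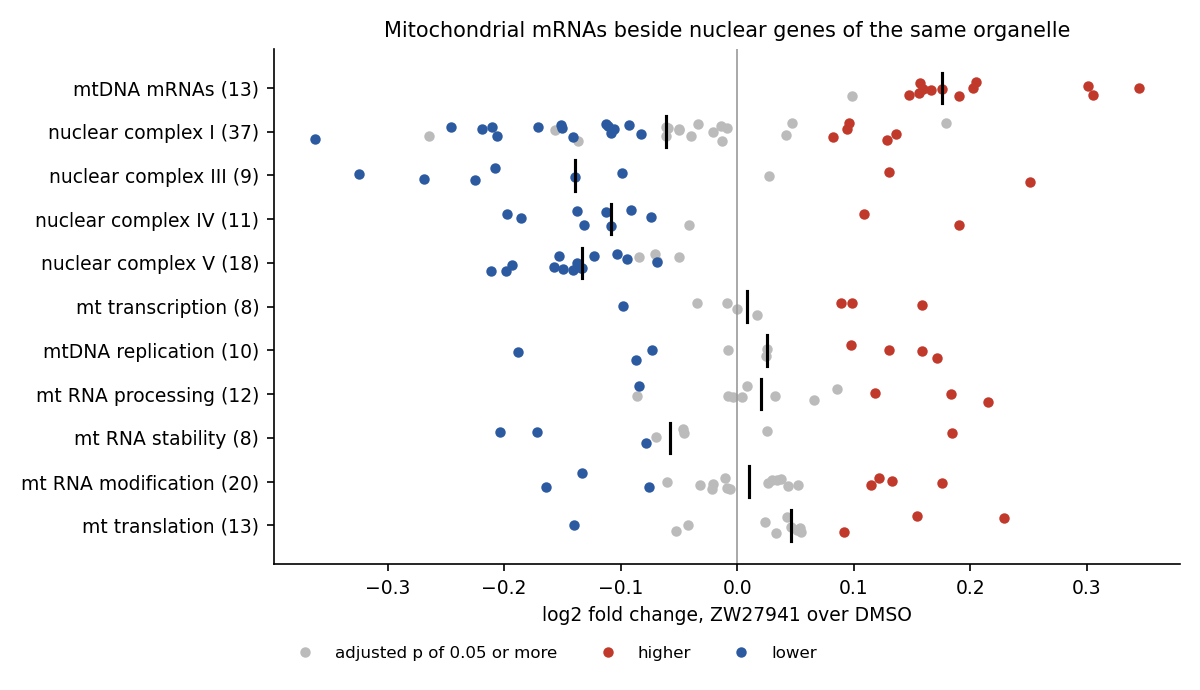
Fitted log2 fold change, ZW27941 over DMSO (x axis), of the 13 mitochondrial mRNAs, of nuclear subunit genes by complex and of nuclear genes of mitochondrial gene expression by step (y axis, number of genes in parentheses). Each point is a gene, coloured by its call in edgeR at an adjusted p of 0.05, and black bars are medians. The median is 0.18 for the mitochondrial mRNAs and lies below 0 for the nuclear subunits of all 4 complexes.

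Nuclear genes that copy, transcribe, process and translate the mitochondrial genome were called in both directions. Of 71 such genes, 18 were called higher and 12 lower in edgeR, with a median log2 fold change of 0.025, beside 16.3% higher and 13.8% lower over all genes tested. The share called lower was close to that background, and counts of the smaller groups that follow are to be read against 30.1% called over all genes in either direction. Without DMSO replicate 1 or without ZW27941 replicate 1, 7 were lower. Among 8 transcription genes, 3 were higher and 1 was lower. TEFM, the elongation factor, stood at 14.7 ± 0.234 CPM in DMSO and 16.5 ± 0.247 CPM on ZW27941 (SD, n = 3), a log2 fold change of 0.16 (edgeR adjusted p = 0.00196). POLRMT, the mitochondrial RNA polymerase, was lower at 88.9 ± 2.01 and 83.1 ± 1.55 CPM (SD, n = 3), a log2 fold change of −0.098 (edgeR adjusted p = 0.00673).

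Among 8 genes of RNA stability, 3 were lower and 1 was higher. LRPPRC and SLIRP, the partners that bind and stabilize mitochondrial mRNAs, were the members with the lowest p. LRPPRC had 475, 474 and 491 CPM in DMSO and 423, 427 and 428 CPM on ZW27941, and edgeR fitted a log2 fold change of −0.17 (standard error 0.024, edgeR adjusted p = 1.40e-05). SLIRP fell from 30.0 ± 0.463 to 26.0 ± 0.834 CPM (SD, n = 3), a log2 fold change of −0.20 (standard error 0.032, edgeR adjusted p = 4.52e-05). Both transcripts were lower in every ZW27941 library, while the 12 heavy-strand mitochondrial mRNAs were higher.

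Among 12 RNA processing genes, 3 were higher and 1 was lower, a share near the background of 30.1%. FASTKD5, which acts on mRNAs that no tRNA borders, rose from 25.3 ± 0.646 to 29.3 ± 1.187 CPM and FASTKD1 from 79.2 ± 2.40 to 89.9 ± 1.57 CPM (SD, n = 3), log2 fold changes of 0.22 and 0.18. Among 10 replication genes, 4 were higher and 3 lower. PRIMPOL, a primase and polymerase, had a log2 fold change of 0.17, and SSBP1, the single-strand binding protein, had −0.19. Among 20 genes of RNA modification, 4 were higher and 3 lower, with MTO1, which modifies tRNA wobble bases, at 0.13 and QTRT1, of queuosine synthesis, at −0.16. Among 13 translation genes, 3 were higher and 1 was lower, with the initiation factors MTIF3 at 0.23 and MTIF2 at −0.14, and this share too was near the background. All 8 of these genes passed the threshold in edgeR.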

How the data were processed

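RNA from MOLM13 cells treated with DMSO or ZW27941 was sequenced, with 3 libraries per group. Unnormalized read counts for each gene symbol were deposited by the authors. The submitters' processing notes name HISAT2, SAMtools 1.19.2, HTSeq 2.0.3 and build hg38. The annotation, the strand setting and the handling of overlapping genes were not given in the sources used here. HTSeq's 5 tallies of unassigned reads were left out. Counts on genes were 143454176 to 178744976 per library, and the biological coefficient of variation was 3.11%.

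Counts were fitted in R 4.3.3 with edgeR 4.0.16 (TMM, filterByExpr, quasi-likelihood test), with Benjamini-Hochberg adjustment over 20399 genes and a threshold of 0.05. Summed levels, shares and ratios were compared by exact two-sided permutation over the 6 libraries (scipy 1.17.1). Positions and sequences came from GENCODE v29. Alternatives were other normalizations and filters, DESeq2 1.42.0, the replicate number as a block and leaving out each library. Steps were tested on simulated data.

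The members and gene lists were chosen with earlier results of these data known. Named were all mRNAs and rRNAs, tRNAs past the threshold or with the 3 highest counts, the 2 genes of each nuclear list past the threshold with the lowest p, and the 3 nuclear copies with the most counts. The result of 1 gene is not reported here. MT-TE, MT-TF, MT-TK, RPPH1 and other genes outside this rule were chosen after their values were seen.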

Additional observations from a re-analysis of the deposited data

How the results depend on the processing

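The 13 mRNAs had 12 to 13 called higher and 0 lower under every alternative run, with every library left out included, and the nuclear genes named kept direction and call under every alternative run. Of 360 values of single members, 345 kept both. An rRNA was called higher with no filter on low counts (1) or without ZW27941 replicate 1, so that leaving out single libraries gave 0 to 1. The called tRNA was lost (0) with upper quartile normalization and with DESeq2, and the range over left-out libraries was 0 to 1. Genes of mitochondrial gene expression called lower numbered 7 with the tallies added to the library size, and 7 to 12 with single libraries left out. Nuclear subunits called higher numbered 5 with upper quartile normalization and 5 with the tallies. Upper quartile normalization raised the share of all called genes that were lower from 45.8% to 57.9%. The log2 ratio of the summed rRNAs was 0.0023 with library size only, and −0.028 to 0.010 with single libraries left out. The cause of these changes was not tested. The count of shares without overlap was 4 to 7, and relative to the summed mRNAs 1 to 3 mRNAs were higher and 0 to 1 lower.

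With single libraries left out, the log2 fold change changed sign for 5 members. It ran from −0.057 to 0.25 for MT-ND6, from −0.092 to 0.24 for MT-RNR1, from −0.038 to 0.00044 for MT-RNR2, from −0.20 to 0.074 for MT-TP and from −0.13 to 0.076 for MT-TS1. With no filter, MT-ND6 (0.10, edgeR adjusted p = 0.00139) and MT-RNR1 (0.096, edgeR adjusted p = 0.00199) passed the threshold.

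Replicate numbers did not pair the libraries (correlations of −0.0099, 0.0031 and 0.043 for equal numbers), and not every library correlated best with its own number. With the replicate block, 6010 genes were called in place of 6149, and 12 mRNAs, 0 rRNAs and 1 tRNA were called higher. Counts per library were lowest for the tRNAs. Standard errors were alike for MT-TP (0.091), MT-ND6 (0.091) and MT-RNR1 (0.084), although MT-TP had far fewer counts.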

Other observations

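HTSeq's tally of reads that fell in no annotated gene was lower in every ZW27941 library, at 11.4%, 11.1% and 10.5% of the reads tallied, than in the DMSO libraries, at 12.4%, 12.2% and 11.9%. The tally of reads aligned to several places was 5.25% in ZW27941 replicate 3 and 3.63% to 4.07% in the other libraries. How many of these reads were mitochondrial was not tested.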
